A study of Drosophila melanogaster with 3 samples.

Results

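The respiratory chain and ATP synthase genes were examined as places where the transcriptional repressor E(spl)mβ was recovered on chromatin in fly embryos. They were chosen by symbol: nuclear protein-coding genes that begin with ND- (complex I), UQCR- (complex III), COX and a digit (complex IV) or ATPsyn (ATP synthase) and lie on chromosome X or 4 or on the arms 2L, 2R, 3L and 3R. There were 80 such genes of 13945 protein-coding genes, namely 40 of complex I, 9 of complex III, 16 of complex IV and 15 of ATP synthase. The material was embryos of Drosophila melanogaster, 0 to 24 h old and of both sexes, of 1 transgenic line that stably carries E(spl)mβ (gene E(spl)mbeta-HLH) with green fluorescent protein at its C terminus, and chromatin was precipitated with an antibody against the tag. All samples belong to 1 group of 3 biological replicates of that line, so no condition was compared, and whole embryos mix all cell types. No source used here gives the promoter or copy number of the transgene, and no untagged line was analysed here. The deposited values are peak lists: 1 for each replicate, 1 for the pooled replicates and 1 of reproducible peaks selected by the irreproducible discovery rate (IDR). Each peak has a summit and a signal deposited by the authors. The scale of the signal and the caller that made it are not stated, so its order is read inside a list, and its size in one replicate is not set against another. The IDR list held 8549 peaks, with signals from 286.5 to 19605.9 and a median of 535.3. All 8549 were the strongest peaks of the pooled list, with the same summits and signals, so these 2 lists share a scale and every gene in the first is in the second. Read totals were not used here, so depth is unknown and no interval for it is given.

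The respiratory chain passes electrons from NADH through complex I, ubiquinone, complex III and cytochrome c to complex IV, which reduces oxygen, and the proton gradient this builds drives ATP synthase. Most subunits of these machines are encoded in the nucleus and must be made in matched amounts with the few encoded by mitochondrial DNA. E(spl)mβ belongs to the basic helix-loop-helix repressors that Notch signalling switches on, and it is known for its part in patterning rather than in energy metabolism.

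A gene counts as bound here if at least 1 of its transcription start sites (TSSs) had a reproducible summit no more than 1000 bp away. Of the 80 genes, 26 (32.5%) were bound, against 32.1% of all protein-coding genes, so the list as a whole stood at the background. The bound genes were 13 of 40 in complex I, 2 of 9 in complex III, 5 of 16 in complex IV and 6 of 15 in ATP synthase. The members were far from alike: 24 of 59 genes without an L suffix were bound (40.7%), and 2 of the 21 paralogs whose symbol ends in L, L1 or L2 (9.52%). No test was made of these shares.

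**Figure D1:**
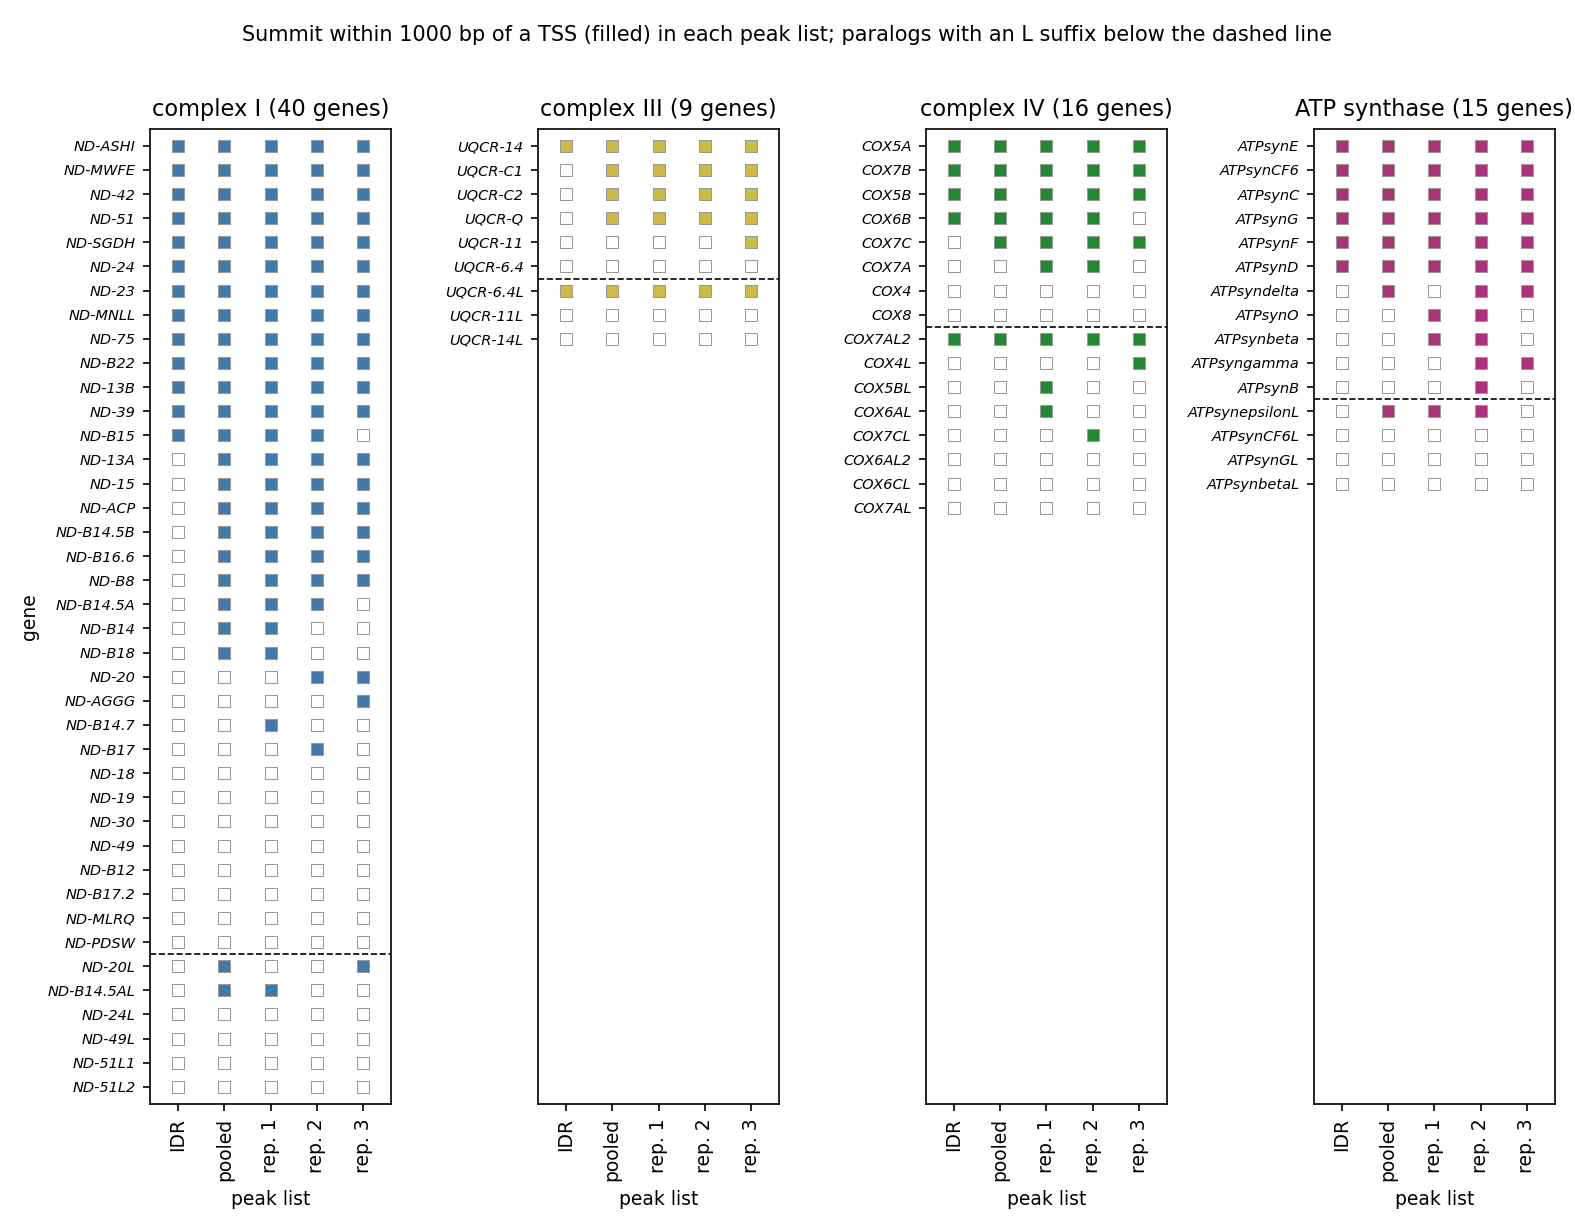
Each square is a gene (row) in a peak list (column: IDR, pooled and replicates 1 to 3), filled where a summit lies within 1000 bp of a TSS; genes below the dashed line are paralogs with an L suffix. Of the 80 genes, 26 are filled in the IDR column and 43 in the pooled column, and 23 are empty in every column.

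Among the 80 genes, the highest signals lay at genes of complex I. ND-ASHI, which encodes the fly counterpart of the human accessory subunit NDUFB8, had the highest signal of the 80 genes, 1801.3, at rank 720 of the IDR list. Its peak had signals of 838.9, 402.6 and 569.6 in replicates 1, 2 and 3, at ranks 637, 737 and 820. It was thus a strong peak in every replicate, though not among the very strongest of the genome. ND-42, the counterpart of NDUFA10, had an IDR signal of 1525 and replicate signals of 533.8, 377.8 and 603.5. ND-51, which encodes the subunit that binds NADH and flavin, had an IDR signal of 1315.2 and replicate signals of 500.3, 281.2 and 543.6. These 3 genes ranked among the top 1530 peaks in each replicate. In complex IV, COX7B, an accessory subunit gene of cytochrome c oxidase, had an IDR signal of 1052.8 and replicate signals of 376.2, 259.1 and 422.7. In ATP synthase, ATPsynCF6, which encodes coupling factor 6 of the stalk that holds the catalytic head, had an IDR signal of 1085.5 and replicate signals of 471.2, 213.5 and 404. In each of these genes the strongest summit lay upstream of the TSS and in no annotated exon.

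The sequence round the strongest summit is shown for these 5 genes and for COX7AL2, one of the 2 bound paralogs, because they span the strong upstream summits of 3 complexes and the AT-poorest window among the bound members. They were chosen after values were seen. They were read from the RefSeq Release 6 assembly (dm6 coordinates) along the strand of the gene, over 60 bp on each side of the summit (less where an exon begins), with the searched motifs in capitals.
ND-ASHI, chrX:6679311-6679431, minus strand: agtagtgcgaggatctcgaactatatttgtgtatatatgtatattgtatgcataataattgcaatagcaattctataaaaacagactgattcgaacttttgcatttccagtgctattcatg
ND-42, chr3R:22027481-22027596, plus strand: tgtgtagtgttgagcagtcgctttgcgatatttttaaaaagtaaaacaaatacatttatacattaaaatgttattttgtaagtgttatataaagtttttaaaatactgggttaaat
ND-51, chr2L:6062783-6062903, minus strand: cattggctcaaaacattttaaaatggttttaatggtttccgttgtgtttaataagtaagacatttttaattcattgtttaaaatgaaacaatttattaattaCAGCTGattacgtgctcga
COX7B, chr3L:17425315-17425435, plus strand: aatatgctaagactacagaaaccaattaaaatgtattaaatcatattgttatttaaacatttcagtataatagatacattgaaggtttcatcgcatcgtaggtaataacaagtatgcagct
ATPsynCF6, chr3R:23356139-23356259, minus strand: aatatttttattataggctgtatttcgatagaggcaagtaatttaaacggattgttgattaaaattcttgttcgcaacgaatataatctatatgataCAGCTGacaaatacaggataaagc
COX7AL2, chr2L:2193559-2193679, minus strand: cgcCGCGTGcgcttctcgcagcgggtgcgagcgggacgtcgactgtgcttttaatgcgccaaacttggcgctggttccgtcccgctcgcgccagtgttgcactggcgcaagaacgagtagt

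Over the 101 bp centred on the summit, A and T made up 71.3% of ND-ASHI, 78.2% of ND-42, 79.2% of ND-51, 74.3% of COX7B and 69.3% of ATPsynCF6, against 35.6% at COX7AL2. Across the 26 bound members the median was 71.3% and the range 35.6% to 84.2%, with COX7AL2 lowest and ND-23 highest. COX6B (40.6%), ATPsynC (48.5%) and ATPsynD (49.5%) were also low. Over all 4475 bound genes the median was 69.3%, close to that of the members. The motif CAGCTG at ND-51 and ATPsynCF6 is an E-box of the type that proneural proteins and their partner Daughterless bind. At COX7AL2 the letters CACGCG stand on the opposite strand; this is the Hairy-type site.

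Short motifs were then counted over 100 bp on each side of the strongest summit, on both strands. CACGTG, the E-box of E(spl) repressors, was found at 0 of 26 bound members, against 3.93% of all bound genes, and GGCACGTG, which contains it, at 0 against 0.894%. No match says only that these letters are not in this window. CACGCG was present at 3 members, COX5A, COX6B and COX7AL2 (11.5%, against 6.28%). All 3 belong to complex IV, but within 200 bp ATPsynCF6 and ND-75 joined them, and within 50 bp no member had it. CAGCTG was present at 6 members, ND-51, ND-B22, ND-13B, ND-42, ND-24 and ATPsynCF6 (23.1%, against 9.81%), of which 5 encode complex I subunits. Complex I genes also made up 13 of the 26 bound members. The N box CACNAG was present at 6 (23.1%, against 19.6%). The DNA replication-related element TATCGATA was found at 2, ND-B15 and UQCR-14 (7.69%, against 7.08%), and GAGAGAG, the site of GAGA factor, at none (0, against 3.55%). GCGCATGC, from the site of the mammalian regulator of respiratory genes NRF-1, was at 0 members, against 0.536%. GGTCACAC, the core of the core promoter element Motif 1, was at 1, COX5A (3.85%, against 3.91%).

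In promoters, taken from 250 bp upstream to 50 bp downstream of the 5′ end of the gene, Motif 1 letters were more frequent. They stood in 15 of 80 members (18.8%), among them COX5A, COX5B, COX7B, ND-MWFE, ATPsynC and ATPsynD of the bound genes, against 7.7% of all protein-coding genes and 11% of all bound genes. Of the bound members 6 of 26 held them, and of those not bound 9 of 54, such as COX4, ND-18 and ND-ACP. TATCGATA stood in 9 of 80 member promoters (11.2%, against 9.36% of all genes), 4 of them bound (ND-B15, ND-23, ND-MNLL and UQCR-14). CACGTG stood in 4 (5%, against 4.2%), of which 1, UQCR-6.4L, was bound. These counts are descriptions without a test.

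In the catalytic core of complex I, the genes of the part that oxidises NADH, ND-75, ND-51 and ND-24, were bound in 3 of 3 cases, beside 32.1% of all genes. Within 500 bp ND-75 is lost, as its summit lies 785 bp from its TSS. That summit is nearer CG1632. With so few genes, the counts for parts of the core are a description. ND-24, which encodes an iron-sulphur subunit, had an IDR signal of 1015.9 and replicate signals of 424, 228.8 and 361.2. ND-75, which encodes the subunit with most of the iron-sulphur clusters of that part, had an IDR signal of 635.1 and replicate signals of 337.6, 143.7 and 148.5, at a summit 785 bp upstream of its TSS. Of the 4 core genes of the part that reduces ubiquinone, ND-23 was bound, with 891.7 and replicate signals of 370, 172.1 and 358.4, and ND-49, ND-30 and ND-20 were not. ND-30 and ND-49 had no summit within 1000 bp in any list, and ND-20 had weak ones in replicates 2 and 3 (35.9 and 29.6). ND-49 lies on the small chromosome 4, where 10% of genes were bound.

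Of the 27 accessory genes of complex I, 9 were bound (33.3%, against 32.1% of all protein-coding genes). ND-MWFE (2R, NDUFA1 in humans) was close behind ND-ASHI, with an IDR signal of 1795.6 and replicate signals of 687.4, 390.1 and 743.4. ND-SGDH (NDUFB5) had 1191.9 and replicate signals of 377.5, 279.5 and 550.2, with a further, more distant summit of 609.4 upstream. ND-MNLL (NDUFB1) had 759.4 and replicate signals of 235.1, 174.6 and 357.7. After these strong peaks came ND-B22 (NDUFB9, 385.8), ND-B15 (NDUFB4, 317.7), ND-13B (NDUFA5, 304.8) and ND-39 (NDUFA9, 293.6), all below the median of the IDR list. The bound complex I genes thus fell into 9 at or above 635.1 and 4 at or below 385.8.

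In complex IV, 4 of 8 genes without an L suffix were bound (50%, against 32.1% of all protein-coding genes), a small group. COX5A had the highest signal, 1337.6, and replicate signals of 612.8, 297.7 and 386.4, and a second summit of 1084 in the same peak lay 29 bp upstream of another of its TSSs, farther downstream in the gene. COX5B had 665.8 and replicate signals of 295.1, 194.4 and 194.8. COX6B had 432.7, with signals of 187.6 and 83.9 in replicates 1 and 2 and no summit within 100 bp in replicate 3. COX4, COX7A, COX7C and COX8 were not bound, of which COX7C came nearest with a pooled signal of 229. In complex III, UQCR-14 (UQCRB in humans) was the 1 bound gene of the 6 without an L suffix, with 462.4 and replicate signals of 261.4, 95.9 and 105.9, and a further summit of 456.3 farther upstream. The core protein genes UQCR-C1 and UQCR-C2 and the small subunit gene UQCR-Q were not bound, although each had a summit in the pooled list and in all 3 replicate lists. UQCR-C1 had 86.4, 40.7 and 50.3 in replicates 1, 2 and 3, UQCR-C2 had 92.3, 50.7 and 87.8, and UQCR-Q had 142.8, 58.3 and 58.9.

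In ATP synthase, the genes of the membrane part and the peripheral stalk were bound in 6 of 8 cases and those of the catalytic head and its central stalk in 0 of 3, beside 32.1% of all genes. The 6 fell to 3 without replicate 2, with ATPsynC, ATPsynD and ATPsynG lost, and to 2 among the 4274 strongest peaks. ATPsynE and ATPsynD count only through summits 814 and 758 bp away that are nearer spn-B and cdi. ATPsynE, for the small membrane subunit e, had 1163.7 and replicate signals of 525.3, 213.3 and 422.6. ATPsynC, for the ring that turns in the membrane, had 491.7, with 327 in replicate 1, 89.7 in replicate 2 and 58.4 in replicate 3, where it ranked 3032, 6800 and 12905. ATPsynG, for subunit g, had 428.2 and replicate signals of 124.6, 114.2 and 187.6. ATPsynF (367.2) and ATPsynD (290.2), for subunits f and d, were lower still. The stalk genes ATPsynO and ATPsynB had no pooled summit in range, although ATPsynO had 175.2 and 120.5 in replicates 1 and 2 and ATPsynB had 84.5 in replicate 2. The head genes were ATPsynbeta, the catalytic subunit, which lies on chromosome 4, ATPsyngamma, the rotor, and ATPsyndelta. Each had summits in 2 of the 3 replicates: ATPsynbeta 156.4 and 64.7 in replicates 1 and 2, ATPsyngamma 115.6 and 165.9 in replicates 2 and 3, and ATPsyndelta 37.4 and 67.1 in replicates 2 and 3. The gene of the other catalytic-head subunit alpha, blw, falls outside the symbol rule and was bound, with 1465.3 and replicate signals of 587.9, 311.6 and 585.7. With groups of 8 and 3 genes, this division is a count and no more.

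**Figure D2:**
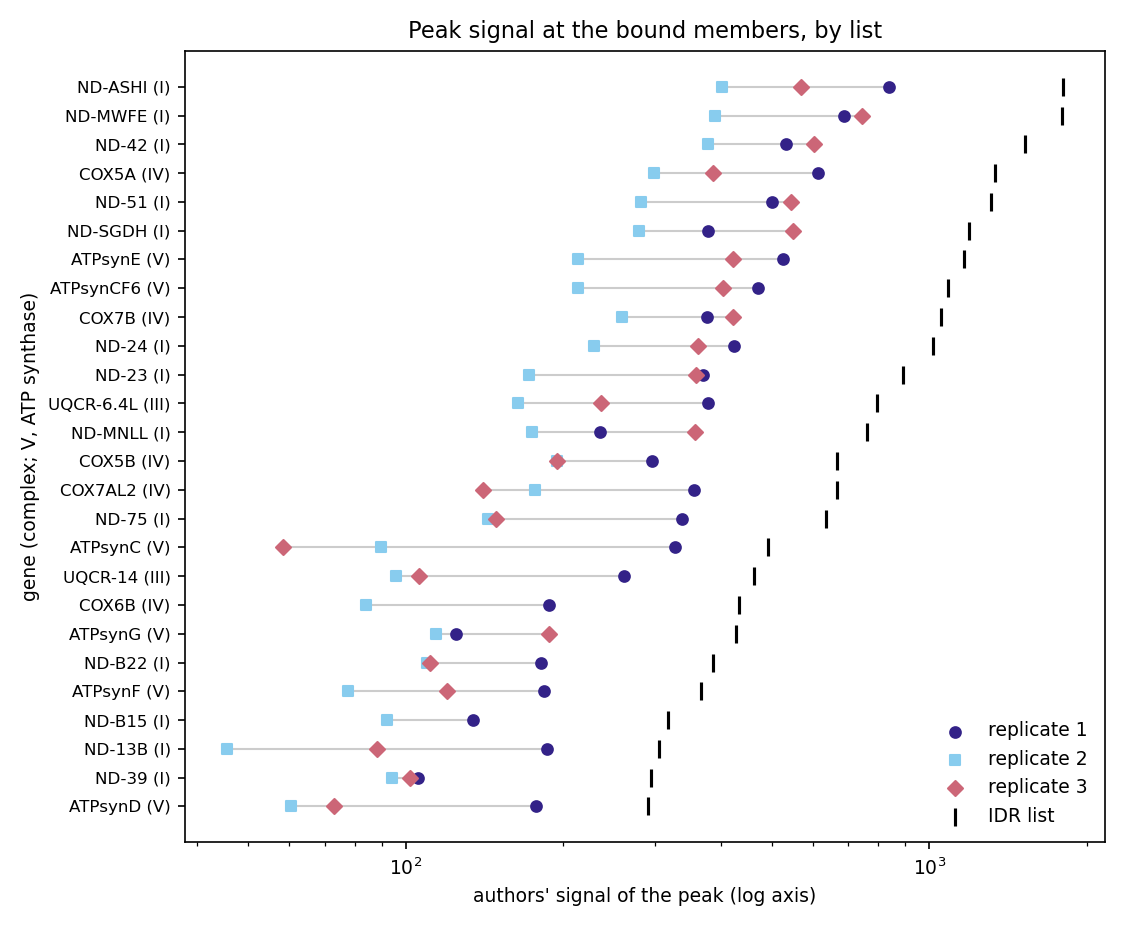
Authors' signal (log axis) of the strongest IDR summit of each of the 26 bound genes (rows), with the signal of the replicate peak whose summit lies nearest within 100 bp (circle, square and diamond: replicates 1, 2 and 3; tick: IDR list). ND-B15 and COX6B have no replicate 3 point, and ATPsynC ranks 3032, 6800 and 12905 in replicates 1, 2 and 3; signal sizes are not comparable between replicates.

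Support by the replicates varied among the bound members. Cutting each replicate list to its 8549 strongest peaks, 19 of the 26 strongest summits lay in a peak of all 3 replicates, 4 in peaks of 2 and 3 in a peak of 1 (73.1% in all 3, against 76.2% of all bound genes). The 3 genes with 1 replicate were ND-B15, ND-13B and ATPsynD, and those with 2 were ATPsynC, ATPsynG, COX6B and ND-39. All of these had IDR signals below the median of that list, but UQCR-14, ND-B22 and ATPsynF, also below it, had all 3. The IDR list was selected by a reproducibility rate, but its peaks are the 8549 strongest of the pooled list. A listed summit thus need not recur in every replicate. The cut of the replicate lists by rank also favours strong peaks. In the full lists, 24 of 26 lay in a peak of every replicate, the exceptions being ND-B15 and COX6B, which lacked one in replicate 3. ND-13B ranked 6444, 14236 and 8739 in replicates 1, 2 and 3, and ATPsynG ranked 10234, 5046 and 3930. The median signal of the bound members, 712.6, was close to that of all bound genes, 713.1.

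The paralogs with an L suffix, several of which are known for expression in the testis, were mostly empty. Neither of the complex I and ATP synthase sets held a bound gene (0 of 6 and 0 of 4), and 1 of 3 was bound in complex III and 1 of 8 in complex IV. UQCR-6.4L had an IDR signal of 794.7 and replicate signals of 377.5, 163.6 and 236.6, at a summit 977 bp downstream of its TSS and past the end of the gene (3L 16566750 to 16567300). The replicate 2 and 3 summits lay 25 and 61 bp farther out, beyond the limit of 1000 bp. Within that limit the highest signals in replicates 2 and 3 were 77.3 and 99.6. COX7AL2 had 665.4 and replicate signals of 355.5, 176.9 and 140.6, 609 bp upstream of the nearest of its TSSs, with weaker summits of 468.9 and 291.6. Neither lay within 500 bp of a TSS. In 10 of the 21 cases the parent gene was bound and the paralog was not, as for ND-51 with ND-51L1 and ND-51L2, ND-24 with ND-24L, COX5B with COX5BL, ATPsynG with ATPsynGL, ATPsynCF6 with ATPsynCF6L and UQCR-14 with UQCR-14L. In 2 cases the reverse held, for UQCR-6.4L and COX7AL2, and in 9 neither was bound. Some parents have several paralogs, so the 21 cases rest on 18 parent genes, of which 8 were bound, beside 32.1% of all protein-coding genes. ND-51 and levy each enter the 10 cases more than once. The parents levy, cype and sun fall outside the symbol rule and were paired by hand. Whether the genes are transcribed in embryos was not measured.

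Most summits lay just upstream of a TSS of the gene. The strongest summit was upstream of the nearest TSS at 21 of 26 bound members (80.8%, against 81.1% of all bound genes). Of the 26, 17 lay within 300 bp upstream (65.4%, against 58.9%). At ND-39, COX7AL2, ND-24, ND-B22 and ATPsynF the nearest TSS was an internal one, and the summit lay inside the gene. The median position was -95.5 bp from the TSS, upstream being negative, against -148 bp over all bound genes. Summits lay at 83, 86, 89, 90 and 94 bp upstream at ND-24, ND-51, ND-MNLL, ND-SGDH and ND-23, and at 97, 101 and 102 bp at COX6B, ATPsynG and COX7B. ND-42, ND-MWFE and ND-ASHI had theirs at 173, 172 and 253 bp upstream. ND-B22 (22 bp upstream), ATPsynF (8 bp upstream), COX5A (9 bp downstream), ND-13B (12 bp downstream) and ATPsynC (34 bp downstream) were bound at the start itself. Beyond 500 bp lay ATPsynE (814 bp downstream), ATPsynD (758 bp upstream), ND-39 (914 bp upstream), ND-75, COX7AL2 and UQCR-6.4L. They made up 23.1% of the bound members, against 17% of all bound genes.

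**Figure D3:**
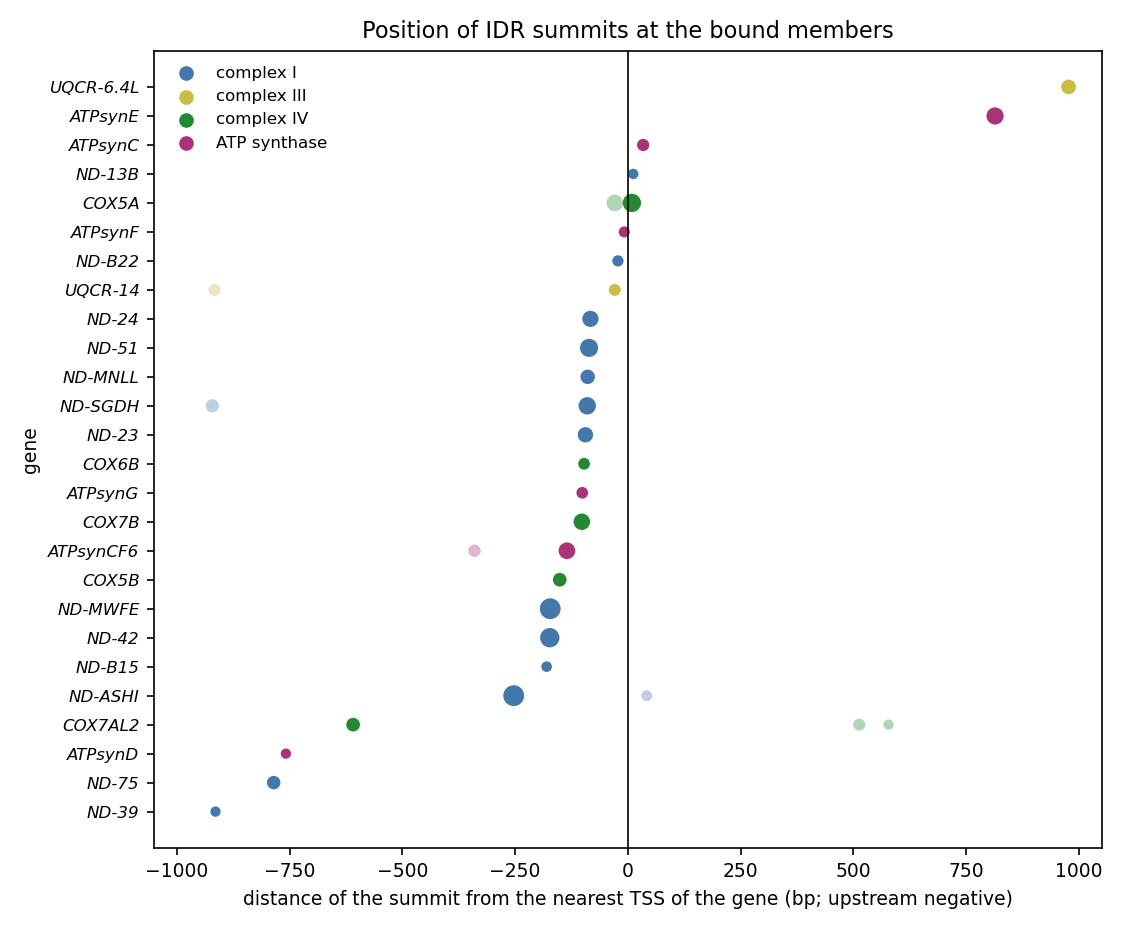
Position of IDR summits at the 26 bound genes (rows, ordered by position), in bp from the nearest TSS of the gene with upstream negative; point area grows with IDR signal, colour gives the complex, and pale points are weaker summits of the same gene. Most strongest summits sit within 300 bp upstream of the TSS, and 6 lie more than 500 bp away.

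Many of these starts are shared with another gene. At 22 of the 26 bound members (84.6%) the strongest summit also lay within 1000 bp of a TSS of another gene, against 63.1% of all bound genes, and at 21 (80.8%, against 57.1%) that gene was protein-coding. At 15 members (57.7%, against 41.5%) the summit lay between the nearest TSS of the member and a coding gene that starts on the opposite strand. These 2 starts were 150 to 983 bp apart. At ND-24 and ATPsynF, which has the shortest gap, that TSS is internal, so the summit lay inside the member and not between the 2 genes. ND-ASHI shares its summit with Fum1, the fumarase gene of the citrate cycle, whose TSS is 269 bp away on the other side. ND-42 shares it with Cchl, for the enzyme that attaches haem to cytochrome c, which is nearer (56 bp) than ND-42 itself. ND-MWFE is paired with TppII (49 bp), ND-51 with CG13994 (146 bp), ND-24 with corolla (191 bp), ND-23 with spn-E (208 bp) and ND-SGDH with RhoGAP68F (194 bp). COX7B is paired with Sec3 (158 bp), COX5B with IFT52 (147 bp), ATPsynCF6 with Sec13 (79 bp) and ATPsynG with SCAR (272 bp). A peak list cannot give such a summit to one gene of the pair.

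At 10 of the 26 bound members another coding gene had the nearer TSS. The summit counted for ATPsynE lay past the end of that gene and 169 bp upstream of spn-B. Those counted for ATPsynD, ND-75 and ND-39 lay 28, 198 and 488 bp from the TSSs of cdi, CG1632 and ZnT77C. COX6B shares its start with CG18809 and ND-MNLL with CG45089, so those pairs cannot be told apart here. The COX6B summit lay 97 bp from that start but 1 bp from the TSSs of CG33932 and Rpp20 on the opposite strand. The summits of ATPsynC, ND-B22, UQCR-14, UQCR-6.4L and COX7AL2 had no other coding TSS within 1000 bp.

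A head-to-head partner, a coding gene that starts on the opposite strand within 1000 bp upstream, went with binding among the members as in the genome. Of the 80 members 42 had such a partner (52.5%, against 36.2% of all protein-coding genes). Of these 42, 20 were bound (47.6%), such as ND-ASHI and COX7B, and of the 38 without a partner 6 were (15.8%). Over all protein-coding genes the shares were 50.1% and 21.9%. Among the paralogs 3 of 21 had a partner, and 0 of those 3 were bound, beside 2 of the 18 without one (11.1%). Of the other members 39 of 59 had one. Of these 39, 20 were bound (51.3%), beside 4 of the 20 other members without one (20%). Members with a partner that were not bound included ND-30, ND-49, ND-PDSW, COX8, ATPsyngamma and UQCR-C1. A summit between 2 starts counts for both genes, and the part of this counting in the shares was not tested.

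**Figure D4:**
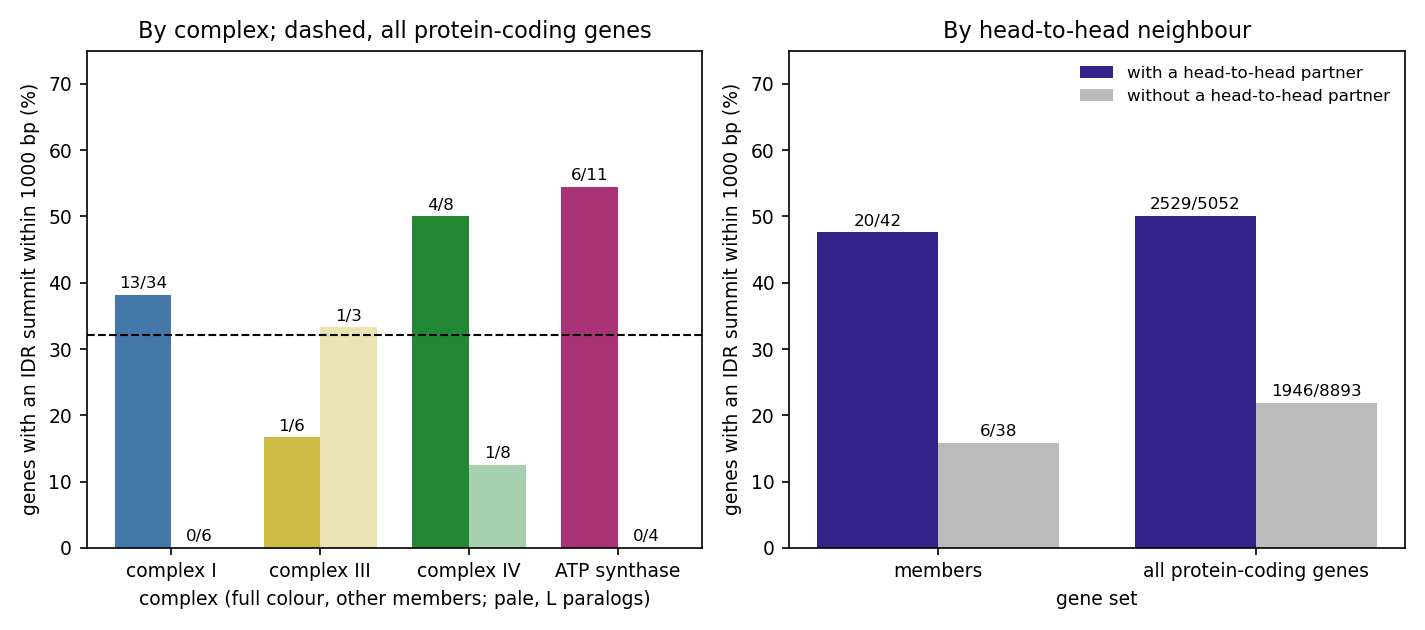
Share of genes with an IDR summit within 1000 bp of a TSS (%), with counts above the bars: left, by complex, for members without (full colour) and with an L suffix (pale), with the share of all protein-coding genes as a dashed line at 32.1%; right, members and all protein-coding genes split by a head-to-head partner. The members reach 47.6% with a partner and 15.8% without one, beside 50.1% and 21.9% of all genes.

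Beyond the reproducible list, summits were found at more members. In the pooled list 43 of 80 had one within 1000 bp (53.8%, against 47.2% of all genes). The replicate lists held one at 47 (58.8%, against 49.6%), 47 (58.8%, against 51.9%) and 41 members (51.2%, against 50.2%) in replicates 1, 2 and 3, and 34 (42.5%, against 41.6%) had one in every replicate. The pooled list added 17 genes to the 26, with signals from 58.7 at ND-20L to 279.8 at ND-B18. As the IDR list is the top of the pooled list, these lie below its lowest signal, 286.5, by construction. Apart from the paralogs ND-20L, ND-B14.5AL and ATPsynepsilonL, they were UQCR-C1, UQCR-C2, UQCR-Q, COX7C, ATPsyndelta and the complex I genes ND-B14, ND-13A, ND-B14.5B, ND-ACP, ND-B8, ND-B16.6, ND-15, ND-B14.5A and ND-B18. ND-B18 (NDUFB7) stands just outside that limit, and ATPsynD (290.2) and ND-39 (293.6) stand just inside it. ND-B18 had a summit in replicate 1 (126.2) and none in replicates 2 and 3, whereas ATPsynD had 177.4, 60.3 and 73 in replicates 1, 2 and 3. On distance, UQCR-6.4L (977 bp) and ND-39 (914 bp) were just inside the limit of 1000 bp, and UQCR-Q, with an IDR summit at 1113 bp, and UQCR-C2, at 1225 bp, were just outside it.

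Another 14 members had summits in 1 or 2 replicate lists and none in the pooled list. Besides ND-20, COX7A and the ATP synthase genes ATPsynB, ATPsynO, ATPsynbeta and ATPsyngamma, they were ND-AGGG, ND-B14.7, ND-B17 and UQCR-11 and the paralogs COX4L, COX5BL, COX6AL and COX7CL. COX7A had 192.7 and 64.5 in replicates 1 and 2, whereas ND-B14.7 had 89.1 in replicate 1 and ND-B17 48.1 in replicate 2. The 4 paralogs had 1 replicate each. COX5BL had 45.9 and COX6AL 38.4 in replicate 1, COX7CL had 29.9 in replicate 2 and COX4L had 51.2 in replicate 3.

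At 23 members no list held a summit within 1000 bp. They comprised 11 genes without an L suffix and 12 paralogs. The former were ND-18, ND-19, ND-30, ND-49, ND-B12, ND-B17.2, ND-MLRQ, ND-PDSW, COX4, COX8 and UQCR-6.4. The paralogs were ND-24L, ND-49L, ND-51L1, ND-51L2, UQCR-11L, UQCR-14L, COX6AL2, COX6CL, COX7AL, ATPsynCF6L, ATPsynGL and ATPsynbetaL. The nearest IDR summit lay 85366 bp from ND-B17.2, 22394 bp from COX8 and 9412 bp from COX4. It was 2210458 bp from UQCR-11 and 2066003 bp from ND-AGGG, although both had a summit in replicate 3 (71.1 and 78.4).

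Genes of the same pathway that the symbol rule leaves out were also examined. Of 9 further subunit genes of complexes III, IV and ATP synthase 6 were bound: besides blw, these were levy (a subunit of complex IV, 1193.8), cype (complex IV, 1011.4), Cyt-c1L (697.6), Cyt-c1 (cytochrome c1, 496) and ox (complex III, 377.8), whereas RFeSP, sun and knon were not. Of 6 complex II genes 2 were bound, SdhC (989.5) and SdhD (342.9), which encode its membrane anchors, and SdhA and SdhB, for the catalytic subunits, had pooled summits only. Both cytochrome c genes had stronger peaks than any member. Cyt-c-d had 2951.5 with replicate signals of 1333.9, 712.2 and 908.5, at a summit 350 bp downstream of its nearest TSS. Cyt-c-p had 2747.3 with 1292.2, 596.3 and 856.8, at a summit 929 bp downstream, just inside the limit of 1000 bp. CIA30, a complex I assembly factor gene, had 3910.9 and replicate signals of 1618.9, 846 and 1473.2, and the other 3 assembly genes examined, Surf1, Scox and sicily, were not bound.

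The carriers sesB and Ant2, which exchange ADP and ATP across the inner membrane, share 1 summit of 438.2, 662 bp downstream of the nearest TSS. Of 12 genes of the citrate cycle and pyruvate dehydrogenase 9 were bound, with Idh3g highest (3701.6), then Fum1, which is the ND-ASHI summit, and Pdhb (1451.9). Of 6 regulators of respiratory or mitochondrial genes 3 were bound, ERR (1355.1), srl, the fly counterpart of the coactivator PGC-1 (713), and ewg, that of NRF-1 (367.3). Of the 73 mitochondrial ribosomal protein genes 41 were bound (56.2%), with a median signal of 697.4. The shares of these lists stand beside 32.1% of all genes as descriptions, with no test of their difference from the 80 genes.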

How the data were processed

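The study measured binding of GFP-tagged E(spl)mβ by chromatin immunoprecipitation and sequencing; per the labels, chromatin fragments were 200 to 800 bp long. The provenance records deposited with the samples name dm6 and trace each replicate list and the pooled list to alignments set against 1 control alignment, and that the IDR list derives from these lists. For the aligner and the caller, names and versions were not given in the sources used here. The signal per peak was deposited by the authors and serves here to order and select peaks of the same list.

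Summits were the peak start plus the deposited offset. Genes and TSSs came from Ensembl release 115 on the Release 6 assembly (13945 protein-coding genes, 19607 TSSs); no IDR peak ended past its arm. Replicate values are those of the peak with the nearest summit within 100 bp. Where a member that is not bound is given replicate or pooled signals, they are the highest within 1000 bp. The 5 peaks of replicate 1 outside the arms were left out. Python 3.11.15 and pandas 2.3.3 were used, and the assignment of summits to genes was checked on made-up summits.

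The members, gene lists, motifs and the rule for named genes were chosen with earlier results of these data known. That rule took the 4 strongest bound members of each complex, all bound paralogs and the members nearest the limits in full, and the others by symbol. The split by head-to-head partner, the division by part of a complex, Motif 1 and the sequences shown were chosen after values were seen. With 1 group, no test was made. Alternatives were other distances, TSS sets, peak lists, overlap rules and windows, and leaving out each replicate.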

Additional observations from a re-analysis of the deposited data

How the results depend on the processing

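No paired analysis was possible because the samples form 1 group. Of 80 genes, the 26 bound became 16 in the 4274 strongest IDR peaks and 43 in the pooled list, while all genes went from 32.1% to 20.7% and 47.2%. Bound members without an L suffix went from 24 to 14 and 38 in these lists, and complex I from 13 to 24 in the pooled list. For ATP synthase the 6 became 2 among the 4274 strongest and 3 among peaks with all 3 replicates. For complex III the 2 became 1 within 500 bp, among the 4274 strongest and where the peak must cover a TSS, 4 within 2000 bp and 5 in the pooled list. The 2 bound paralogs became 0 within 500 bp and where the peak must cover a TSS, and 5 in the pooled list.

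Leaving out each replicate in turn, with peaks of both others required, gave 19 to 21 bound members, 10 to 11 in complex I, 2 in complex III, 4 to 5 in complex IV, 3 to 4 in ATP synthase (3 without replicate 2), 2 paralogs and 17 to 19 others. All of these start from IDR peaks, to which every replicate had contributed, so the counts could only fall.

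Motif counts followed the window. Within 50 bp of the summit CACGCG was at 0 bound members (against 3.2%) and the N box at 1 (3.85%, against 8.94%). Within 200 bp CACGTG was at 1 (3.85%, against 7.51% of all bound genes), CACGCG at 5 (19.2%, against 11.6%), the N box at 16 (61.5%, against 39.3%), TATCGATA at 6 (23.1%, against 14.1%), CAGCTG at 11 (42.3%, against 25.2%) and GGTCACAC, added after the data were seen, at 4 (15.4%, against 9.99%). The other counts and medians stayed within 1.5 times of the reported value. Read depth is unknown, so a missing peak at a weak gene cannot be told from too few reads.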
